A study of Mus musculus with 8 samples.

Results

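Chromatin accessibility was examined at 10 genes of the EGF receptor system, namely the receptors *Egfr*, *Erbb2* and *Erbb3*, the ligands *Areg*, *Ereg*, *Hbegf*, *Tgfa*, *Btc* and *Epgn*, and the inhibitor *Errfi1*. Every ATAC-seq peak that overlapped one of these gene bodies or the 20 kb upstream of it in the mouse genome mm10 was taken. These windows held 197 of the 299328 peaks of the 8 libraries, which merged into 39 of 69399 accessible regions. Of the 39 regions, 14 lay at *Egfr*, 6 at *Hbegf*, 5 at *Ereg*, 3 each at *Erbb3*, *Btc* and *Errfi1*, 2 each at *Erbb2* and *Areg*, 1 at *Tgfa* and none at *Epgn*.

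EGFR, ERBB2 and ERBB3 are receptor tyrosine kinases that signal as pairs. ERBB2 has no known ligand of its own, and ERBB3 has little kinase activity and depends on its partner. The ligands are made as membrane-anchored precursors, from which a soluble EGF-like domain is cut by ADAM proteases. In epidermis, keratinocytes make several of these ligands and respond to them, and the pathway is known to drive their proliferation and migration. *Errfi1* encodes MIG6, a feedback inhibitor that is induced by EGFR signalling and binds the receptor's kinase domain.

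The cells were cutaneous squamous cell carcinoma (SCC) cells with Ha-Ras as the driver gene, from tumours raised with DMBA and TPA in K14CreER FAKflox/flox FVB mice. *Ptk2*, which encodes focal adhesion kinase (FAK), was deleted in culture with 4-hydroxytamoxifen. All 4 lines thus share the floxed genotype, the carcinogen and the deletion. FAK-/- cells lack FAK, and the FAK-WT, FAK-nls and FAK-kd lines are FAK-/- cells transduced with a retrovirus for wild-type FAK, FAK impaired in nuclear localization or kinase-deficient FAK. The re-expressing lines were selected in hygromycin, which the paper states for them alone, so selection and re-expression cannot be told apart. They derive from 1 FAK-/- clone, so a line and its condition cannot be told apart, and each line had 2 libraries. The comparisons asked which accessible regions depend on FAK, on its nuclear localization or on its kinase activity.

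The lists held between 24402 and 53728 peaks per library and were smallest in both FAK-nls libraries. The lists give no read depth, so a region without a peak may still be accessible below the calling threshold. The paper reports depth per library, with fewer mapped reads and a smaller share of duplicates in both FAK-kd than in both FAK-nls libraries. How depth bears on the calls was not tested. The fold enrichment of a peak is its coverage over the local background of the same library, and its rank is its place by −log10 p in its own list, with rank 1 the strongest. As a check of the cell type, a peak within 1 kb of any annotated transcript start was sought for marker genes. Among 6 keratinocyte markers, *Itga6* had one in 8 libraries, *Itgb4* in 3, *Lamb3* in 2, *Krt14* in 1, and *Krt5* and *Trp63* in 0. Of 4 fibroblast markers, *Col1a1* and *Pdgfra* had one in 8 libraries, *Col3a1* in 7 and *Dcn* in 0. No haematopoietic, endothelial or melanocyte marker had one in more than 4 libraries. The label of epidermal origin therefore has little backing at the defining keratin genes in these lists. *Ptk2* had a peak at its gene start in all 8 libraries, which does not check the deletion.

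The sequences of 7 member regions and 2 promoters are shown. They are the reference bases of GRCm38 (mm10), plus strand, for the 200 bp around the centre of a region. Capitals mark exact matches on either strand to 3 short motifs: AP-1 (TGACTCA), ETS (AGGAAGT or CGGAAGT) and the cyclic AMP response element CRE (TGACGTCA). The first 4 were present in the FAK-WT pair of libraries and absent from the FAK-nls pair. Among them are the *Egfr* intron regions 19.8 kb and 99.1 kb from the gene start (chr11:16771928-16772127 and chr11:16851178-16851377). The others are a *Btc* intron region (chr5:91375550-91375749) and a region upstream of *Errfi1* (chr4:150843287-150843486). Regions with that pattern and a match were chosen first, so the matches shown do not give their frequency. The *Egfr* region 57.7 kb from the start has the pattern, holds no match in its central 200 bp and is not shown. Without the pattern, the *Egfr* regions 16.8 kb upstream and 78.6 kb from the start hold an AP-1 match there and are not shown either.
Egfr intron 19.8 kb: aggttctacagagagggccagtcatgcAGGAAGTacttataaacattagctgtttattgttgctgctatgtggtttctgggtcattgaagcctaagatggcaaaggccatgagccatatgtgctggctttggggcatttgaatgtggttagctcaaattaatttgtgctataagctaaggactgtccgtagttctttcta
Egfr intron 99.1 kb: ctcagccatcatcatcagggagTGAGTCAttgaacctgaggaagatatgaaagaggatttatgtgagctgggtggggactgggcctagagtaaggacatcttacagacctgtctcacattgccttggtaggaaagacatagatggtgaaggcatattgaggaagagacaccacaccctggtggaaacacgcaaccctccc
Btc intron 27.3 kb: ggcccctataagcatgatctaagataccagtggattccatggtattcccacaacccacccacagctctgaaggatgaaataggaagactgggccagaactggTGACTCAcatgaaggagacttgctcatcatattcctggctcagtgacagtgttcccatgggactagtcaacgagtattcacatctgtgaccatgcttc
Errfi1 upstream 10.5 kb: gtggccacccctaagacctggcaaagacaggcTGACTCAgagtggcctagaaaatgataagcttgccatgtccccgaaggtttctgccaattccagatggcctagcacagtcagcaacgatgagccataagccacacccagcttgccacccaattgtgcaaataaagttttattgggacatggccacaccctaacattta

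The next 3 are the *Egfr* region and the *Ereg* region whose worst rank over the 8 libraries was the best of their gene (chr11:16800637-16800836 and chr5:91083451-91083650, both intronic), and the sole *Tgfa* region, which is also intronic (chr6:86219561-86219760). The *Ereg* bases are the centre of the joined region, and only the peaks of FAK-WT replicate 1 and FAK-nls replicate 2 cover all of them.
Egfr intron 48.5 kb: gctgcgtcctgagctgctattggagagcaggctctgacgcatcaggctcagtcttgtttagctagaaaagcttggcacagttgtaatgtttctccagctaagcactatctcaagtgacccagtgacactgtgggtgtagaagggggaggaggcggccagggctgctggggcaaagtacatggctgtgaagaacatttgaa
Ereg intron 8.93 kb: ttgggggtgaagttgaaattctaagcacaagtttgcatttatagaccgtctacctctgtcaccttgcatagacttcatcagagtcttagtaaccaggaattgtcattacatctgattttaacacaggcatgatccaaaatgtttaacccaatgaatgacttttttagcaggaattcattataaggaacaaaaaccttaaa
Tgfa intron 24.4 kb: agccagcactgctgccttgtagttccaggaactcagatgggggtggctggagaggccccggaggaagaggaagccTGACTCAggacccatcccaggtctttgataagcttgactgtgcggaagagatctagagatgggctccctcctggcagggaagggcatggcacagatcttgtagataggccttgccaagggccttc

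The last pair gives the 150 bases before the RefSeq start of *Areg* (chr5:91139449-91139598), which had a peak in all 8 libraries, and of *Tgfa* (chr6:86195072-86195221), which had none.
Areg promoter: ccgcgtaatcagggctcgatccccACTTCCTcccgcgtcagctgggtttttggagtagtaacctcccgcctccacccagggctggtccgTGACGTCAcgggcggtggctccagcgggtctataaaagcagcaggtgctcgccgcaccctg
Tgfa promoter: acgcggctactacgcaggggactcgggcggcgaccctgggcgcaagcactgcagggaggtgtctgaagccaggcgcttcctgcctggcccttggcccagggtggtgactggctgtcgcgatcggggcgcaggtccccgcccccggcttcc

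*Egfr* was the member with the most regions, 4 of them called in all 8 libraries, 7 in 2 to 7 libraries and 3 in 1 library. The gene (ENSMUSG00000020122.16, chr11:16752203-16918158, plus strand) is long, and its window held 7.53 regions per 100 kb, against a median of 4.28 and an upper quartile of 7.84 over 21911 protein-coding genes. Its 14 regions put it at the 98.3rd percentile of those genes by count, and this count grows with gene length. The FAK-WT libraries had 10 and 9 of the regions, the FAK-/- libraries 12 and 9, the FAK-kd libraries 8 and 9, and the FAK-nls libraries 5 and 5. No other library had fewer than 8. Of all regions, the FAK-nls libraries had 34.9% and 35.7% and the others 47.1% to 77.0%. With the 24383 strongest peaks of each library, *Egfr* had 6 and 7 regions in FAK-WT, 9 and 6 in FAK-/-, 7 and 5 in FAK-kd, and 5 and 5 in FAK-nls cells, so FAK-nls then overlapped FAK-kd.

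**Figure D1:**
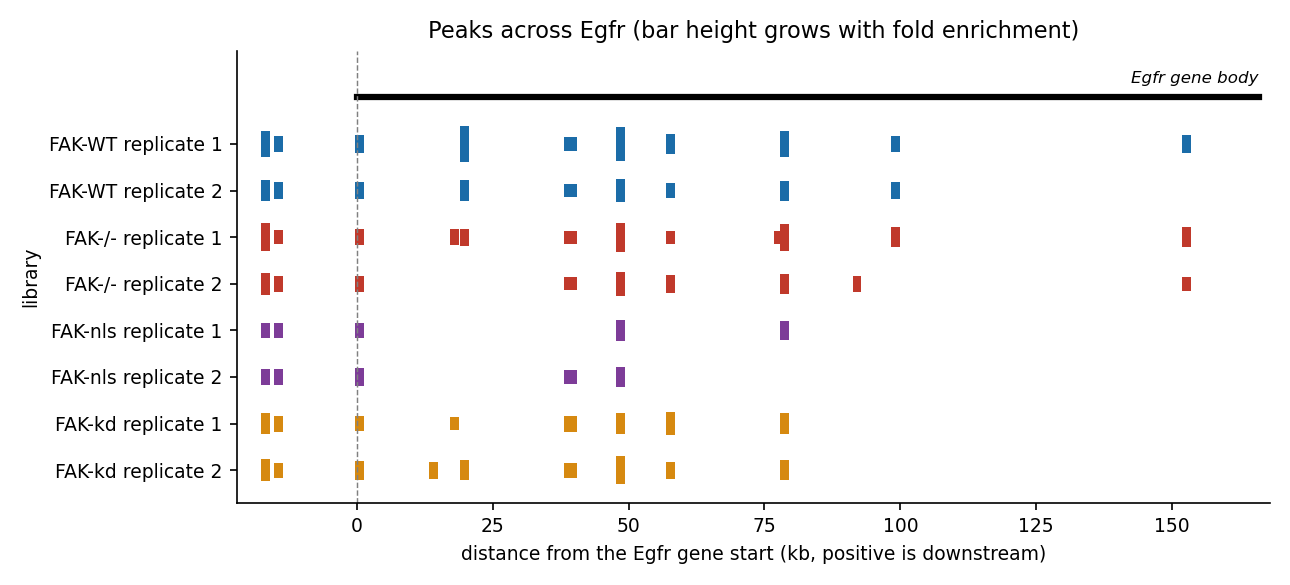
Peaks across the *Egfr* window in each of the 8 libraries, by distance of the region's centre from the gene start in kb. Each bar is 1 region called in that library, drawn at least 1.6 kb wide, its height grows with fold enrichment, colours mark the lines and the black line is the gene body. The FAK-nls libraries have 5 bars each and no bar beyond the region at 78.6 kb, where those of FAK-WT and FAK-/- libraries go on and those of FAK-kd libraries also end.

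At the *Egfr* start, the region that holds the first exon (chr11:16751983-16753477) was called in every library. Its fold enrichment was 4.37 and 4.38 in FAK-WT, 4.02 and 4.09 in FAK-/-, 3.82 and 4.67 in FAK-kd, and 3.70 and 4.43 in FAK-nls cells. Both FAK-WT values lay above both FAK-/- values, and the FAK-nls and FAK-kd pairs each spanned all 4 of these. After quantile normalisation between libraries the log2 difference of FAK-WT from FAK-/- was 0.002. In rank it was an ordinary peak, between place 11955 and place 22842 of its list.

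The strongest *Egfr* region in all libraries together lay in an intron, 48.5 kb from its start. Its fold enrichment was 8.32 and 5.55 in FAK-WT, 7.05 and 6.0 in FAK-/-, 5.08 and 6.97 in FAK-kd, and 5.22 and 4.82 in FAK-nls cells, with ranks between 2510 and 11232. The FAK-nls values were the lowest and the third lowest of the 8, and the highest was in FAK-WT replicate 1, followed by FAK-/- replicate 1 and FAK-kd replicate 2. A region 16.8 kb upstream of *Egfr* (chr11:16735025-16735684) had 6.36 and 5.10 in FAK-WT, 6.90 and 5.5 in FAK-/-, 5.23 and 5.49 in FAK-kd, and 3.86 and 4.03 in FAK-nls cells. Both FAK-nls values lay below all others, and the peak ranked 18170 and 18667 there against 2388 to 11559 elsewhere. This region, called in all 8 libraries, holds 2 AP-1 matches, and the one 48.5 kb from the start holds 1 outside the bases shown.

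Of the *Egfr* regions that some lines lacked, 3 were present in the FAK-WT pair and absent from the FAK-nls pair. The intron region 19.8 kb from the start had fold enrichment 8.66 in FAK-WT replicate 1, 5.08 in FAK-WT replicate 2, 4.23 in FAK-/- replicate 1 and 5.01 in FAK-kd replicate 2. It was not called in the other 4 libraries, so FAK-/- and FAK-kd each had it in 1 of 2 replicates. In FAK-WT it ranked 4741 and 15088, inside the 24383 peaks of the smallest list. This region holds an ETS match.

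The region 57.7 kb from the start (chr11:16809083-16810801) was called in all 6 libraries outside FAK-nls, with fold enrichment between 3.43 and 5.82. The third, 99.1 kb from the start, was called in 3 libraries, at 4.13 and 4.42 in FAK-WT and 4.94 in FAK-/- replicate 1. It was absent from both FAK-nls and both FAK-kd libraries and holds an AP-1 match. A region 78.6 kb from the start, also with an AP-1 match, missed FAK-nls replicate 2 alone (fold enrichment 4.69 to 6.6 in the 7 others). The region 39.3 kb from the start missed FAK-nls replicate 1 alone. The remaining *Egfr* regions were called in 1 to 3 libraries, apart from one 14.4 kb upstream that was called in all 8 at 3.71 to 4.42 and also holds an AP-1 match.

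The other receptors had fewer regions. *Erbb2*, the shared partner of the family (ENSMUSG00000062312.5, chr11:98412470-98437716, plus strand), had its start region in all libraries, at 4.97 and 5.08 in FAK-WT, 4.27 and 3.71 in FAK-/-, 3.41 and 5.42 in FAK-kd, and 4.63 and 4.34 in FAK-nls cells. In these deposited values FAK-WT lay above FAK-/- and FAK-nls, and the FAK-kd pair spanned the range of all 8. After quantile normalisation the log2 difference of FAK-WT was -7.6e-05 from FAK-nls and 0.22 from FAK-/-. The second *Erbb2* region, 11.9 kb upstream and inside *Pgap3*, was missed by FAK-/- replicate 2 and FAK-nls replicate 2.

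*Erbb3*, the neuregulin receptor (ENSMUSG00000018166.8, chr10:128567523-128589652, minus strand), was also open at its start in all libraries. Fold enrichment was 4.13 and 3.82 in FAK-WT, 3.55 and 3.62 in FAK-/-, 3.30 and 4.70 in FAK-kd, and 3.49 and 4.04 in FAK-nls cells. All lines overlapped but FAK-WT and FAK-/-, whose log2 difference after quantile normalisation was 0.035. A coding exon region 5.84 kb inside the gene was missed by FAK-/- replicate 2 and FAK-nls replicate 1, and a region 9.80 kb upstream was called in FAK-/- replicate 1 alone.

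*Areg*, *Ereg*, *Epgn* and *Btc* are neighbours on chromosome 5. *Areg* encodes amphiregulin, an autocrine ligand of keratinocytes (ENSMUSG00000029378.5, chr5:91139599-91148432, plus strand). Its start region had 5.16 and 4.30 in FAK-WT, 3.99 and 5.40 in FAK-/-, 4.28 and 5.34 in FAK-kd, and 4.47 and 3.53 in FAK-nls cells. The replicates of each line spread as widely as the lines did. The region holds both a CRE and an ETS match, seen in the promoter sequence. An intron region 5.54 kb from the start was called in 5 libraries, among them 1 of FAK-WT, both of FAK-/-, 1 of FAK-nls and 1 of FAK-kd.

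*Ereg*, the epiregulin gene (ENSMUSG00000029377.5, chr5:91074622-91093646, plus strand), had 3 of its 5 regions in all libraries, and the other 2 in FAK-kd replicate 2 alone. Its intron region 8.93 kb from the start had 5.54 and 5.5 in FAK-WT, 6.35 and 6.42 in FAK-/-, 5.70 and 6.49 in FAK-kd, and 4.00 and 4.69 in FAK-nls cells. Both FAK-/- values lay above both FAK-WT values, and both FAK-nls values lay below the other 6. Its ranks ran from 1907, in FAK-/- replicate 2, to 14024, in FAK-nls replicate 1. It holds 2 AP-1 matches outside the bases shown.

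The start region of *Ereg* had 5.36 and 4.52 in FAK-WT, 4.43 and 4.77 in FAK-/-, 4.23 and 5.43 in FAK-kd, and 4.16 and 3.59 in FAK-nls cells. FAK-nls was again the lowest pair. The region 2.21 kb upstream ran the other way, at 3.45 and 3.26 in FAK-WT, 3.99 and 3.35 in FAK-/-, 3.57 and 3.05 in FAK-kd, and 3.54 and 4.73 in FAK-nls cells. Its high FAK-nls value came from replicate 2.

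*Btc* encodes betacellulin, a ligand of EGFR and ERBB4 (ENSMUSG00000082361.6, chr5:91357261-91402994, minus strand). Its start region was called in all libraries, at 4.78 and 4.29 in FAK-WT, 4.83 and 4.16 in FAK-/-, 4.31 and 4.99 in FAK-kd, and 4.00 and 3.71 in FAK-nls cells. FAK-nls held the lowest values here too. The intron region 27.3 kb inside the gene was called at 4.47 and 5.21 in FAK-WT and 5.14 and 3.87 in FAK-/- cells. No FAK-nls or FAK-kd library had a peak there. It ranked between 14466 and 33178 in the 4 libraries that had it and holds an AP-1 match. The rank of 33178, in FAK-WT replicate 1, lay beyond the length of both FAK-nls lists and the FAK-kd replicate 1 list. With an equal number of strongest peaks from each library, the region was called in FAK-WT replicate 2 and FAK-/- replicate 1 alone. No line then had it in both replicates, so the separation by call was lost. Another *Btc* region, 2.36 kb from the start, was called in FAK-WT replicate 1 alone.

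*Epgn*, the gene of epigen (ENSMUSG00000035020.11, chr5:91027464-91035215, plus strand), had no region in its window in any library. The nearest one began 9188 bp from its start, beyond the gene's 3′ end, and was called in FAK-/- replicate 1 alone. *Tgfa*, which encodes TGF-alpha (ENSMUSG00000029999.14, chr6:86195223-86275719, plus strand), had no region at its start either. Its sole region, 24.4 kb inside the gene, was called in FAK-WT replicate 2 at 3.84, with a rank of 28875. Among the protein-coding genes 22.6% had no region in their window, and 53.3% had one within 1 kb of the gene start.

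Over the RefSeq promoters of GRCm38.p6, of which 7 of the 10 members had an entry, the *Tgfa* promoter was rich in G and C at 70.7%, with an observed over expected CpG ratio of 0.641. It had no peak. The promoters with a peak in all 8 libraries had 59.3% to 66.7% G and C, and the other promoters without a peak were those of *Epgn* (47.3%) and the upstream start of *Errfi1* (42%). The *Btc* promoter, with a peak in all 8 libraries, had 60.3% and a CpG ratio of 0.187. The median promoter had 52.7% and 0.384. Of all promoters in that set, 1.79% held the CRE, 15.1% an ETS match and 5.20% an AP-1 match.

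*Hbegf* encodes heparin-binding EGF-like growth factor (ENSMUSG00000024486.6, chr18:36504927-36515805, minus strand), and its window had the highest density of the members, 19.4 regions per 100 kb. Its start region had 5.38 and 4.41 in FAK-WT, 3.92 and 3.93 in FAK-/-, 3.54 and 4.07 in FAK-kd, and 4.11 and 4.06 in FAK-nls cells. Both FAK-WT values lay above the other 6. The other 5 regions were called in 2 to 4 libraries each, none of them FAK-nls libraries. One of these, 6.32 kb upstream, was called in both FAK-WT libraries, FAK-/- replicate 1 and FAK-kd replicate 2, at 2.71 to 3.58, with ranks of 32765 to 42511, beyond the length of the FAK-nls lists. The FAK-nls libraries had 34.9% and 35.7% of all regions. With the 24383 strongest peaks of each library, *Hbegf* had 2 regions in each FAK-WT and FAK-/- library, 1 and 3 in FAK-kd, and 1 in each FAK-nls library.

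*Errfi1*, the feedback inhibitor (ENSMUSG00000028967.10, chr4:150853919-150868892, plus strand), had the start region with the highest median fold enrichment of the members. The region covers a transcript start and first exon inside the annotated gene, 783 bp from its 5′ end. Its fold enrichment was 6.33 and 6.02 in FAK-WT, 6.26 and 5.49 in FAK-/-, 5.32 and 6.33 in FAK-kd, and 5.13 and 6.54 in FAK-nls cells, and all 4 lines overlapped. A CRE match lies in this region. Its worst rank in any library was 5965. The *Ereg* start region ranked ahead of it in FAK-WT replicate 1 (2030 against 5090), FAK-/- replicate 2 (2685 against 4676) and FAK-kd replicate 2 (2855 against 5965). In the other libraries the *Ereg* start ranked behind it. The *Areg* start region was also ahead in FAK-/- replicate 2, at 4651.

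Upstream of *Errfi1*, the region at 16.3 kb was called in all libraries, at 5.62 and 4.69 in FAK-WT, 4.02 and 4.18 in FAK-/-, 4.61 and 5.69 in FAK-kd, and 4.03 and 3.91 in FAK-nls cells. Both FAK-WT values lay above FAK-/- and FAK-nls. Both upstream regions hold an AP-1 match. The region at 10.5 kb was called at 5.46 and 4.20 in FAK-WT, 3.29 in FAK-/- replicate 1 and 4.11 in FAK-kd replicate 2. It was missing from both FAK-nls libraries and from 1 replicate each of FAK-/- and FAK-kd.

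**Figure D2:**
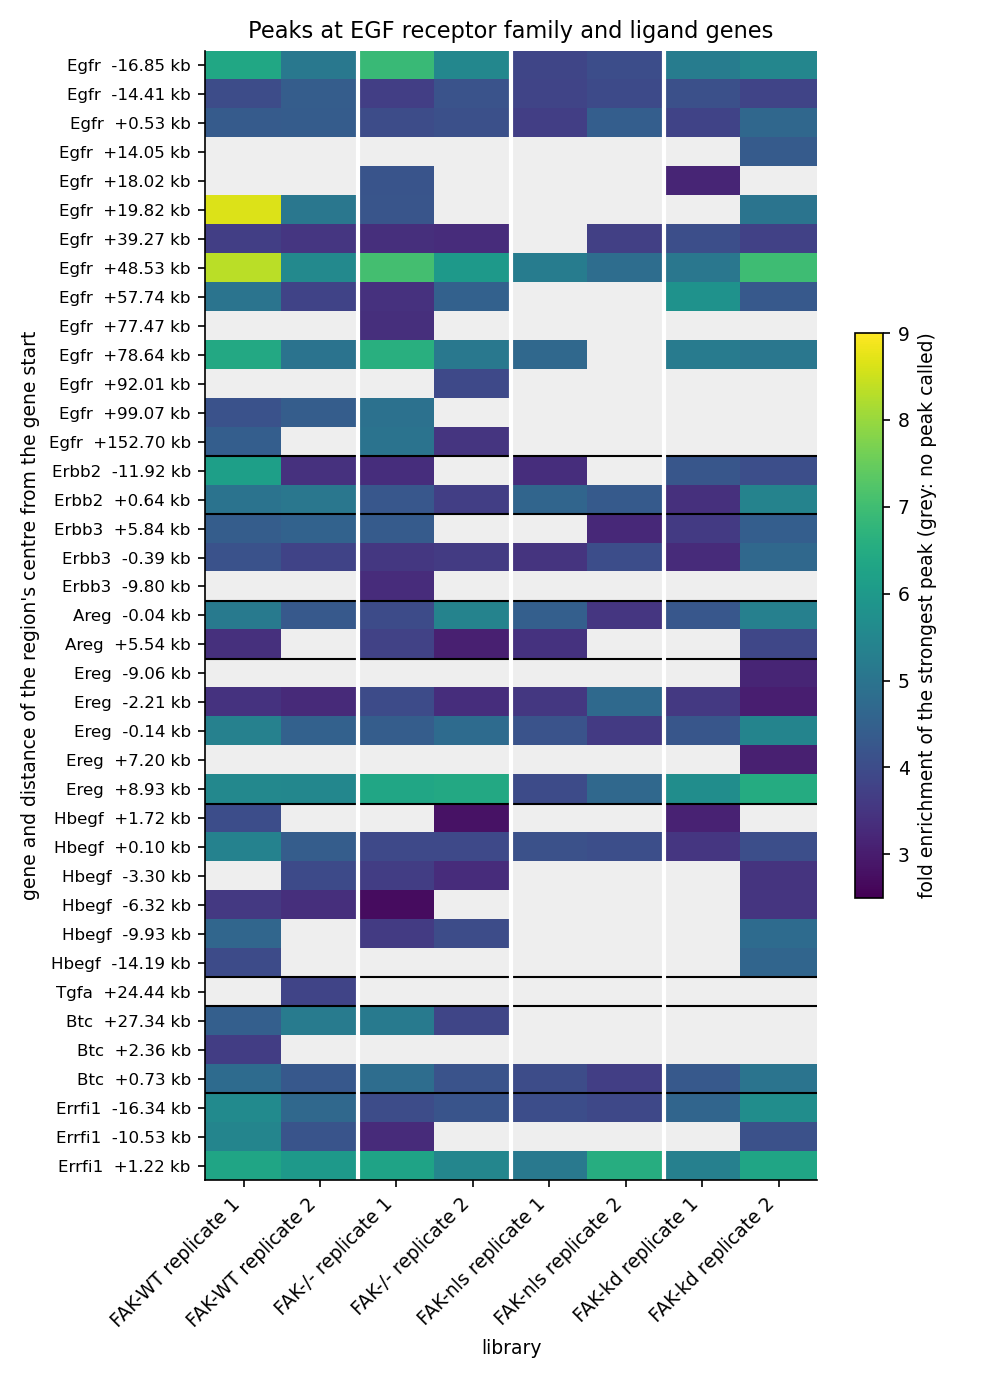
Fold enrichment of the strongest peak in each of the 39 regions (rows, by gene and distance of the region's centre from the gene start in kb) in each of the 8 libraries (columns), with grey where no peak was called. Start regions of 8 genes are filled across all libraries, and the 2 FAK-nls columns are grey in most of the distal regions of *Egfr* and *Hbegf*, beside 34.9% and 35.7% of all regions called in these libraries.

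The called peaks at gene starts also differed in length, the span that MACS2 joined into 1 broad peak. At *Btc* the start peak was 1553 bp and 1822 bp long in FAK-WT, 627 bp and 542 bp in FAK-/-, 453 bp and 1569 bp in FAK-kd, and 327 bp and 310 bp in FAK-nls cells. The FAK-nls peaks were the shortest and FAK-kd replicate 2 was as long as FAK-WT. At *Egfr* the start peak spanned 1223 bp and 1116 bp in FAK-WT, 1495 bp and 1311 bp in FAK-/-, 1417 bp and 1185 bp in FAK-kd, and 769 bp and 937 bp in FAK-nls cells, again the shortest pair. The other start peaks did not share this order. At *Erbb3* the FAK-nls peaks, at 1003 bp and 1010 bp, were longer than those of FAK-WT replicate 2 (847 bp), FAK-/- replicate 2 (365 bp) and both FAK-kd libraries (780 bp and 493 bp). At *Erbb2*, *Areg* and *Hbegf* the shortest peak was in FAK-/- (505 bp) or FAK-kd cells (495 bp and 334 bp). The start peak of *Ereg* ranged from 756 bp to 994 bp, both in FAK-nls cells, and that of *Errfi1* from 643 bp to 845 bp. Length was not tested between lines.

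At the level of the gene start, 8 of the 10 members had a region called in all 8 libraries within 1 kb, against 38.1% of protein-coding genes. The start regions were ordered by median fold enrichment over the 8 libraries as *Errfi1* (6.14), *Erbb2* (4.48), *Ereg* (4.47), *Areg* (4.39), *Btc* (4.30), *Egfr* (4.23), *Hbegf* (4.07) and *Erbb3* (3.72). *Errfi1* ranged from 5.13 to 6.54 and did not overlap *Btc* (3.71 to 4.99), *Egfr* (3.70 to 4.67) or *Erbb3* (3.30 to 4.70). The ranges of all neighbours in the order overlapped.

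**Figure D3:**
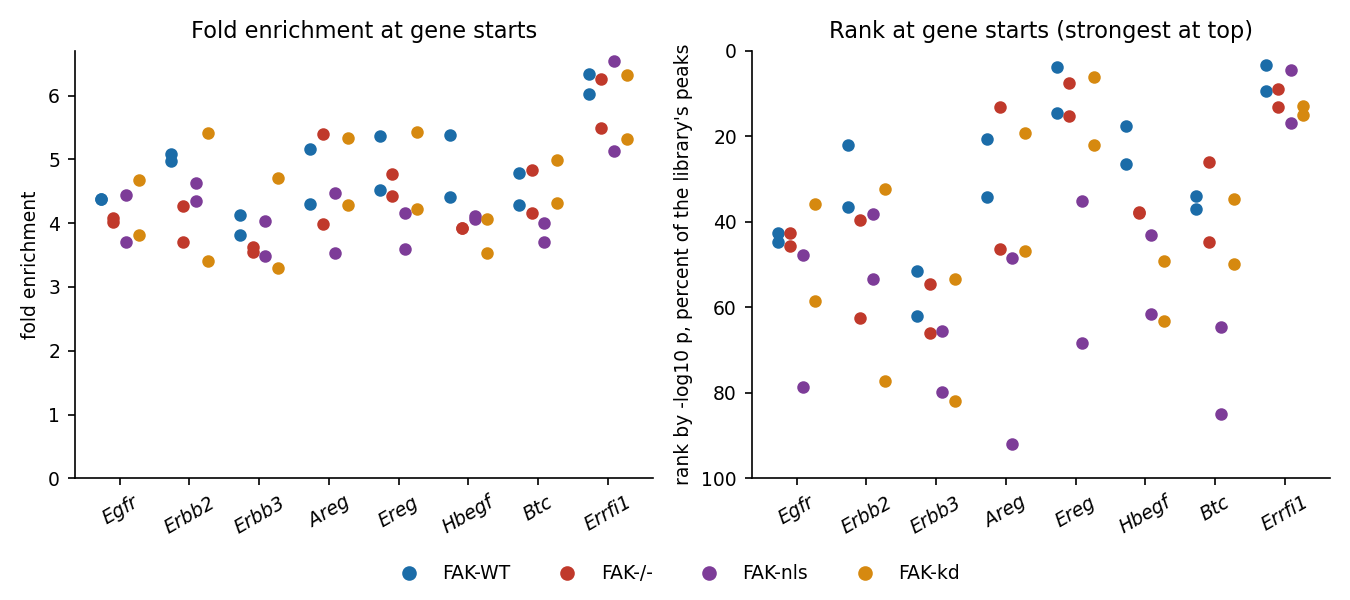
Fold enrichment (left) and rank as a percent of the library's peaks (right, strongest at the top) of the region at the start of 8 member genes. Each point is 1 library, coloured by line, 2 per line. *Errfi1* sits above 5 in fold enrichment in every library, and the other genes lie between 3.30 and 5.43. Both FAK-WT points are highest at *Hbegf*, and both FAK-nls points are lowest at *Btc* and *Ereg*.

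Counted over all members, the FAK-WT libraries had 30 and 26 of the 39 regions, the FAK-/- libraries 31 and 24, the FAK-kd libraries 21 and 29, and the FAK-nls libraries 17 and 16. The mean count was 28 ± 2.83 in FAK-WT, 27.5 ± 4.95 in FAK-/-, 25 ± 5.66 in FAK-kd and 16.5 ± 0.707 in FAK-nls cells (SD over 2 libraries). FAK-nls was the one line whose libraries did not overlap any other line. The shares of the members were 76.9% and 66.7% in FAK-WT and 43.6% and 41.0% in FAK-nls, beside 77.0% and 55.9%, and 34.9% and 35.7%, of all regions. The FAK-nls peak lists were also the shortest, which the counts at equal peak number set aside.

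With the 24383 strongest peaks taken from each library, the windows held 30 regions. The mean count then was 19.5 in FAK-WT, 19.5 in FAK-/-, 15.5 in FAK-kd and 16 in FAK-nls cells, with 60.1% to 60.4% of all regions called in every library. The FAK-nls counts of 17 and 15 lay below both FAK-WT counts (18 and 21) and overlapped those of FAK-/- (22 and 17) and FAK-kd (16 and 15).

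**Figure D4:**
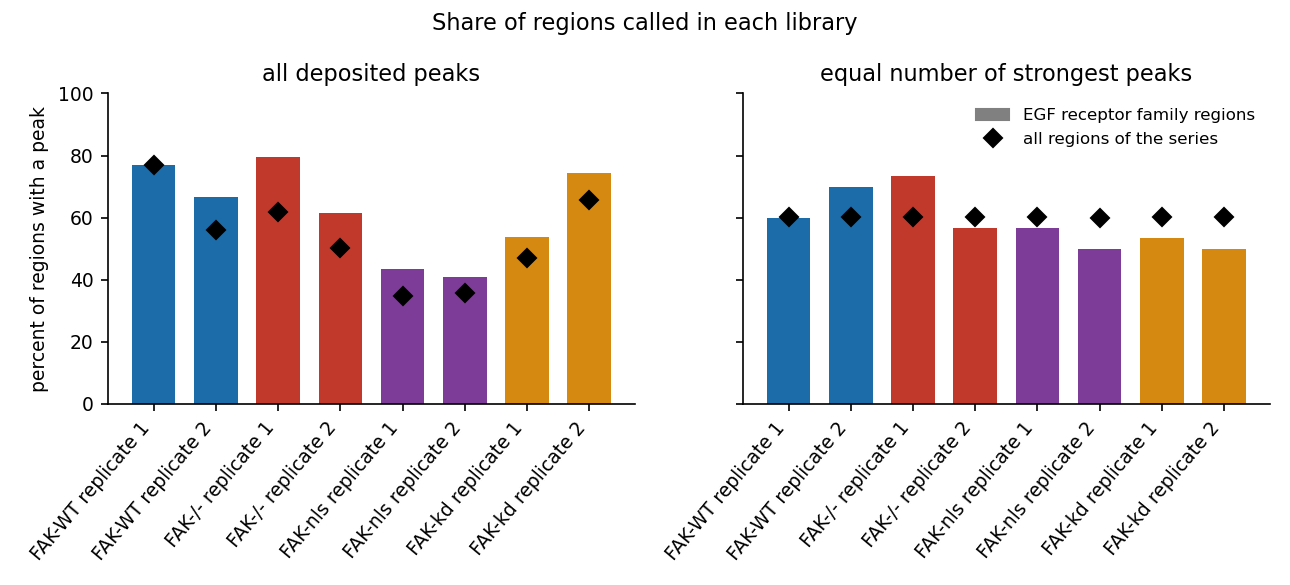
Percent of the EGF receptor family regions (bars, coloured by line) and of all regions (black diamonds) with a peak in each library, with all deposited peaks (left, 39 member regions) and with the 24383 strongest peaks of each library (right, 30 member regions). On the left both FAK-nls bars are lowest, at 43.6% and 41.0%, and on the right they stand at 56.7% and 50%, beside FAK-kd bars of 53.3% and 50%.

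Regions shared by all 8 libraries numbered 14 of 39 (35.9%), beside 25.8% of all regions, and 8 of 39 (20.5%) were called in 1 library, beside 28.6% of all regions. At equal peak number 10 of 30 member regions (33.3%) were in all 8 libraries, beside 32.7% of all. With a minimum −log10 q of 3 the order turned, with 2 of 32 member regions (6.25%), beside 20% of all. The 14 regions shared by both FAK-nls libraries were the same 14 that all libraries shared. Over all regions, 90.8% of those in both FAK-nls libraries were in all 8.

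FAK dependence was read from regions with a peak in each FAK-WT library and no peak in the pair of another line. Against FAK-/- cells no member region had this pattern, beside 4.89% of all regions, and none had the reverse (1.18%). Against FAK-nls cells 6 of 39 did (15.4%, beside 15.3% of all regions), namely 3 of *Egfr* and 1 each of *Hbegf*, *Btc* and *Errfi1*, and none had the reverse (0.248%). Against FAK-kd cells 2 of 39 did (5.13%, beside 4.33%), the *Egfr* region 99.1 kb from the start and the *Btc* intron region, and none had the reverse (0.83%). The member shares against FAK-nls and FAK-kd were near those of all regions. With a minimum −log10 q of 3, 10 of 32 member regions (31.2%) had the pattern against FAK-nls, beside 19.7% of all regions. These counts depended on single libraries, and so did the shares of all regions, since leaving out a library loosens the rule for every region. Against FAK-/- the pattern numbered 6 without FAK-/- replicate 1 (15.4%, beside 10.3% of all regions), 1 without FAK-WT replicate 1 (2.56%, beside 7.92%) and 2 without FAK-WT replicate 2 (5.13%, beside 20.4%). The reverse numbered 3 without FAK-WT replicate 1 or FAK-/- replicate 2 (7.69%, beside 4.68% and 6.96%) and 1 without FAK-WT replicate 2 or FAK-/- replicate 1 (2.56%, beside 1.43% and 3.56%). Against FAK-nls the pattern numbered 11 without FAK-WT replicate 2 (28.2%, beside 37.6%). Against FAK-kd it numbered 4 without FAK-WT replicate 2 (10.3%, beside 18.1%), 5 without FAK-kd replicate 2 (12.8%, beside 11.8%) and 3 without FAK-WT replicate 1 (7.69%, beside 7.38%). The reverse there numbered 3 without FAK-kd replicate 1 (7.69%, beside 8.09%) and 1 without FAK-kd replicate 2 (2.56%, beside 2.85%). With 2 against 2 libraries no test of a single region's calls can pass 0.05.

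At equal peak number 1 of 30 member regions had the pattern against FAK-/- cells (3.33%, beside 3.44% of all regions), 2 of 30 against FAK-nls (6.67%, beside 4.91%) and 1 of 30 against FAK-kd (3.33%, beside 3.1%). No member had the reverse, beside 3.31%, 4.23% and 2.64% of all regions. The *Egfr* region 19.8 kb from the start kept its pattern against FAK-nls. The *Errfi1* region 10.5 kb upstream was then present in the FAK-WT pair alone. The *Btc* intron region and the *Egfr* region 99.1 kb from the start lost theirs, since FAK-WT replicate 1 had them below that cutoff. The *Egfr* region 57.7 kb from the start lost its pattern as well, with a call left in 3 libraries (FAK-WT replicate 1, FAK-/- replicate 2 and FAK-kd replicate 1), and the *Hbegf* region 6.32 kb upstream was called in none.

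Fold enrichment was compared at the 14 member regions called in all 8 libraries by limma on quantile-normalised log2 values, with Benjamini-Hochberg adjustment over 17917 regions. No member region passed an adjusted p of 0.05 in any of the 3 comparisons, beside 0.00558% of all regions for FAK-WT against FAK-/- cells, 0% against FAK-nls and 0.0112% against FAK-kd, which are 1, 0 and 2 regions. At an unadjusted p under 0.05 there were 0, 2 and 1 member regions, and 1135 (6.34%), 2753 (15.4%) and 961 (5.36%) of all regions. No other tool was run on these values.

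The *Egfr* region 16.8 kb upstream was higher in FAK-WT than in FAK-nls cells by 0.39 on the log2 scale (SE 0.15, 95% interval 0.08 to 0.69), with an adjusted p of 0.226 from limma. Its peaks were 253 bp and 336 bp long in FAK-nls and 439 bp to 573 bp in the other libraries. With peak length regressed out the difference was 0.22 (adjusted p from limma 0.486). With log2 pileup in place of fold enrichment it was 0.69 (adjusted p from limma 0.0831). The *Ereg* region 2.21 kb upstream had a log2 difference of -0.37 (SE 0.16, -0.70 to -0.04), lower in FAK-WT, with an adjusted p of 0.275. It was -0.15 without FAK-nls replicate 2, -0.61 without FAK-nls replicate 1 and -0.10 with log2 pileup in place of fold enrichment (adjusted p from limma 0.657, 0.133 and 0.84). The *Hbegf* start region had a log2 difference of 0.32 (SE 0.13, 0.03 to 0.60) between FAK-WT and FAK-kd cells, with an adjusted p of 0.883. These 3 were all the member regions with an unadjusted p under 0.05.

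Over the 14 regions, the median log2 difference of FAK-WT was -0.02 from FAK-/-, 0.10 from FAK-nls and 0.02 from FAK-kd cells, beside medians of 0.00, -0.01 and -0.01 over all regions. FAK-WT had the higher value in 5, 9 and 10 of the 14. The differences lay between -0.37 and 0.39, and the 95% intervals of all of them between -0.70 and 0.69. Regions that lost their peak in some library could not enter this comparison. These bounds are not a detection limit, which also depends on the adjusted threshold. The widest interval reached 0.38 to either side of its estimate, and differences of that size or larger could be missed. A p that misses the threshold does not show that the lines were alike.

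**Figure D5:**
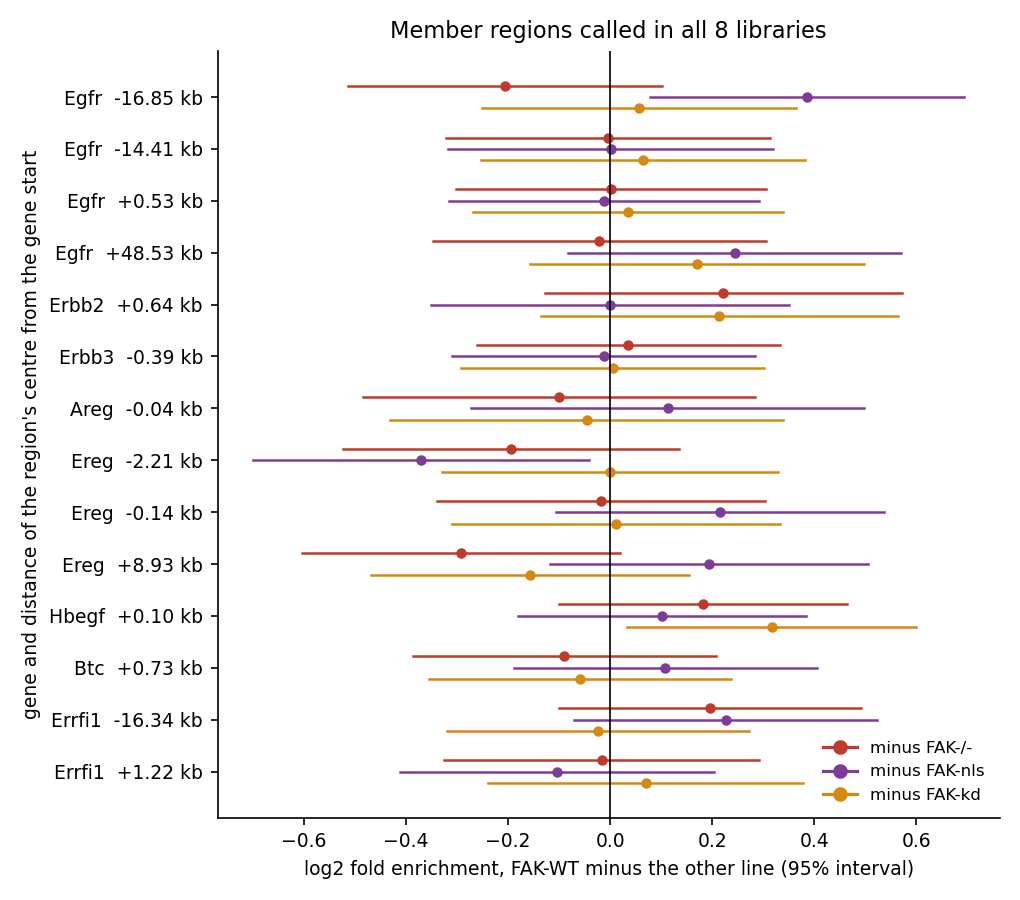
Log2 fold enrichment in FAK-WT minus each other line at the 14 member regions called in all 8 libraries (rows, by gene and distance from the gene start in kb), with points for the limma estimate and lines for its 95% interval. Intervals leave 0 for *Egfr* 16.8 kb upstream (0.39) and *Ereg* 2.21 kb upstream (-0.37) against FAK-nls and for the *Hbegf* start (0.32) against FAK-kd.

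Short motifs were counted in the member regions and in all regions. In the central 500 bp, 14 of 39 held an AP-1 match (35.9%, beside 35.3% of all regions), 8 an ETS match (20.5%, beside 17.0%) and 2 a CRE (5.13%, beside 1.07%). None of the 14 regions with AP-1 covered a transcript start of its own gene, and both regions with a CRE were the start regions of *Areg* and *Errfi1*. Of the 6 regions that separated FAK-WT from FAK-nls by call, 4 held AP-1 there. None of these 6 covered a transcript start. Off the members' own transcript starts, AP-1 was in 14 of 31 member regions (45.2%). Off every annotated transcript start, it was in 41.1% of all regions and 46.2% of all regions with that call pattern. A match describes the letters alone.

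Beyond the members, 33 further genes of the pathway had 172 regions, and 53 (30.8%) of them had a peak in each library, beside 25.8% of all regions. The FAK-WT pair had, and the other line lacked, 8 (4.65%) against FAK-/-, 31 (18%) against FAK-nls and 7 (4.07%) against FAK-kd cells, with 1, 0 and 0 for the reverse. These stood beside 4.89%, 15.3% and 4.33% of all regions for the pattern and 1.18%, 0.248% and 0.83% for the reverse. *Erbb4*, the fourth receptor, had no region in any library. The ligand gene *Nrg1*, a neuregulin, had 29 regions, with 27 and 18 in FAK-WT, 20 and 17 in FAK-/-, 17 and 20 in FAK-kd, and 9 and 8 in FAK-nls cells. The adaptor gene *Shc1* had all 4 of its regions in every library. *Lrig1*, which encodes a negative regulator of the receptors, had 17 regions, of which the FAK-nls libraries had 5 and 5 and the FAK-WT libraries 16 and 10. The FAK-nls libraries had 34.9% and 35.7% of all regions.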

How the data were processed

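ATAC-seq peaks of 8 libraries from 4 SCC lines were used as deposited, and the groups came from the sample labels. The authors aligned reads to mm10 with bcbio and called broad peaks in each library separately with MACS2 (version 2.1.1 in the submitters' processing notes) at a q-value threshold of 0.05. Each deposited peak has a position, a length and values averaged over the broad peak. The deposited pileup is coverage signal. The deposited −log10 p-value and −log10 q-value test it against the local background. The deposited fold enrichment is the ratio of pileup to that background. Between 0.784% and 3.83% of a library's peaks had a q-value above 0.05. The lists give no read counts, so the count test the study used was not possible here.

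Peaks that shared 1 bp or more were joined into regions, on the autosomes (1 to 19), X and Y. A region was called in a library with any peak in it, and its strongest peak by −log10 p gave its values. Gene bodies and starts came from GENCODE vM21 (GRCm38). Fold enrichment was tested with limma 3.58.1 in R 4.3.3, in 1 fit of all 8 libraries, two-sided, and the fit was tested on simulated data. The study names 2 biological replicates per line but does not state whether they were separate cultures, so p-values measure the spread between these libraries. Python 3.11.15 and pysam 0.24.0 read peaks and sequence. The cells are FVB and the printed bases are the reference strain's.

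All 10 members are named. Within a member the text gives the region at or nearest the gene start, the region with the best worst rank, those called in both libraries of one line and neither of the other, those past the test's threshold, and all regions of members with few. The members, gene lists and tests were chosen with earlier results of these data known. Alternatives were equal peak numbers, a minimum −log10 q of 3, windows of 10 kb and 50 kb, 50% coverage, peaks of 500 bp, other scalings, a replicate block and leaving out each library.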

Additional observations from a re-analysis of the deposited data

How the results depend on the processing

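The counts of member regions depended on how peaks were taken. With the 24383 strongest peaks of each library, mean counts were 19.5 in FAK-WT, 19.5 in FAK-/- and 15.5 in FAK-kd cells, and regions in both FAK-WT and neither other library (FAK-WT pattern) numbered 1 of 30 against FAK-/-, 2 against FAK-nls and 1 against FAK-kd (3.33%, 6.67% and 3.33%, beside 3.44%, 4.91% and 3.1% of all regions). With a minimum −log10 q of 3, means were 24.5 in FAK-WT, 20 in FAK-/- and 6.5 in FAK-nls, 2 of 32 regions were in all 8 libraries (6.25%, beside 20% of all regions), and the FAK-WT pattern numbered 1 against FAK-/- (3.12%, beside 5.77%) and 10 against FAK-nls (31.2%, beside 19.7%). A window of 10 kb gave means of 22.5 in FAK-WT and 13.0 in FAK-nls. A window of 50 kb gave 40 in FAK-WT, 39 in FAK-/-, 36 in FAK-kd and 23.5 in FAK-nls, and FAK-WT patterns of 1, 10 and 4 of 59 against FAK-/-, FAK-nls and FAK-kd (1.69%, 16.9% and 6.78%, beside 4.89%, 15.3% and 4.33% of all regions). With 50% of a region covered, means were 10.5 in FAK-nls and 18.5 in FAK-kd, and 5 of 39 regions were in all 8 (12.8%, beside 10.5% of all regions). The FAK-WT pattern then numbered 1 against FAK-/- (2.56%, beside 6.11%), 9 against FAK-nls (23.1%, beside 17.7%) and 4 against FAK-kd (10.3%, beside 5.57%). Peaks set to 500 bp left the patterns and the 14 shared regions as they were in number. The 10 kb and 50 kb windows leave the shares of all regions unchanged, at 34.9% and 35.7% in the FAK-nls libraries. For the minimum −log10 q and the 50% coverage, no share of all regions per library stands beside the means.

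Leaving out 1 library at a time, the FAK-WT pattern ranged from 0 to 6 against FAK-/-, highest without FAK-/- replicate 1, from 8 to 11 against FAK-nls and from 2 to 5 against FAK-kd. The reverse ranged from 1 to 3 against FAK-/- and from 0 to 3 against FAK-kd, and was 0 against FAK-nls. These settings ask for a call in fewer libraries, so counts can only rise, as did the shares of all regions (6.17% to 20.4%, 19% to 37.6% and 5.41% to 18.1% for the pattern). Regions in all remaining libraries numbered 14 to 15, an alternative chosen after seeing the data.

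No member region passed the limma threshold under any setting. Over all regions, calls were 1, 0 and 2 against FAK-/-, FAK-nls and FAK-kd, and 98, 336 and 43 with log2 pileup, 5, 87 and 3 with normal scores of rank, 5 against FAK-/- with median centring, 3 against FAK-/- with peak length regressed out, 1 against FAK-nls with regions called in at least 1 library of every line, and 0 against FAK-/- and FAK-kd without normalization. Without 1 library they ranged from 0 to 2 in each comparison. The cause was not tested. With log2 fold enrichment, the *Egfr* difference from FAK-nls ranged over 14 settings from 0.22 (peak length regressed out) to 0.53 (adjusted p from limma 0.227 to 0.606), that of *Ereg* from -0.61 to -0.15, lowest in size without FAK-nls replicate 2, and that of *Hbegf* from FAK-kd from 0.25 to 0.36.

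The replicate numbers were not taken as pairs in the main fit. Deviations of same-numbered libraries correlated between -0.20 and 0.06, which does not show whether they were prepared together. A replicate block gave 1, 0 and 2 calls over all regions and 0, 0 and 0 member regions, as without it. Read depth was not used here, and it limits every absent call.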

Other observations

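Between the windows of the ligand genes on chromosome 5 lay regions that belong to none of them. From 20 kb before *Epgn* to 20 kb beyond *Btc* there were 29 regions, of which 19 fell outside the member windows. Of these, 16 and 12 were called in the FAK-WT libraries, 14 and 10 in FAK-/-, 5 and 5 in FAK-nls, and 11 and 13 in FAK-kd. The FAK-nls libraries had the same 5, which all 8 libraries shared. The strongest, chr5:91282781-91283465 in the noncoding gene *Gm19619*, ranked 60 in its best library, with a fold enrichment of up to 8.95, ahead of every member region in rank. A further 4 regions were called in all 6 libraries outside FAK-nls and in neither FAK-nls library, among them chr5:91311608-91312151 with a best rank of 4000. Of all regions 4.12% had that pattern, and the FAK-nls libraries had 34.9% and 35.7% of all regions. These regions were chosen after their values were seen, and which gene they serve was not tested. Upstream of *Tgfa*, the nearest region lay 107687 bp from the gene start and was called in 7 libraries.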
